A study of Homo sapiens with 12 samples.

Results

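The dystrophin glycoprotein complex was followed through 8 of its genes (DMD, UTRN, DAG1, SGCA, SGCB, SGCD, SGCE and DTNA) in cultures of Rh30, a human alveolar rhabdomyosarcoma cell line that carries the PAX3-FKHR fusion gene. Members were all probes whose gene symbol on the array was one of these 8, of 30238 names in the array's gene column. They were 19 of the 41000 gene probes: 5 for DMD, 4 for DTNA, 3 for SGCD, 2 each for UTRN and DAG1, and 1 each for SGCA, SGCB and SGCE. The 3 cultures were compared on 12 arrays that each hold the RNA of a pair of cultures, labeled with Cy3 and Cy5: the parental, untransfected Rh30 cells (WT); a clone with a non-targeting hairpin in a retroviral puromycin vector (CON); and a clone with a hairpin against PAX3-FKHR in the same vector (KD1). CON and KD1 were kept in puromycin at 1 μg/mL and WT was not, and all 3 were grown for 24 h in DMEM with 10% serum before RNA was taken. Each culture gave 2 RNA extracts, and each extract was read on 4 arrays, so that every comparison, written below as the ratio KD1/CON, KD1/WT or WT/CON, had 2 replicates with a dye-swap pair each. KD1 and CON are each 1 clone and the knockdown is partial, so an effect of the hairpin and a difference between clones cannot be told apart. The study calls the replicates biological but does not say how far apart they were grown, and the p-values measure only the spread between these extracts.

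In muscle, dystrophin sits under the cell membrane and ties the actin cytoskeleton to dystroglycan, which crosses the membrane and binds laminin outside the cell. The sarcoglycans are a group of membrane proteins that stabilize this link, and the dystrobrevins bind dystrophin from inside and bring in syntrophins. Utrophin is the autosomal relative of dystrophin and can take its place. Loss of dystrophin causes Duchenne muscular dystrophy, and loss of α-, β- or δ-sarcoglycan causes limb-girdle forms. Alveolar rhabdomyosarcoma cells express the muscle determination program without completing it.

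Among the members only SGCA, the gene of α-sarcoglycan, passed the test, and it was lower in KD1 than in both other cultures, by 2.48-fold against CON and 2.64-fold against WT. This call was borderline and was lost in 7 of 9 alternative fits against CON and in 9 of 9 against WT. The brightest probes of DMD, UTRN and SGCE were also below 0 in both replicates of both KD1 comparisons, but by less than 2-fold and without passing the test. DTNA showed another order, with its lowest level in CON. Against WT, the brightest probes of DAG1, SGCB, SGCD and DTNA differed in sign between the replicates.

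The array reads a transcript through 60-base probes, and the position of the probe decides which transcripts of a gene it can report, which matters most for DMD. This gene spans a long stretch of the X chromosome and makes a full-length protein, Dp427, as well as shorter proteins from internal promoters, among them Dp140 and Dp40. The stretches below are shown because the values of DMD and SGCA rest on them. They are printed 5′ to 3′ in the sense of the transcript, with positions on build NCBI36. The first 3 probes, all of DMD, lie in coding sequence, from the 5′-most to the 3′-most. The first of them reaches over 369 bases of the genome, and so lies across an intron, as the third does. Each assignment is the label of the array, and whether a probe also reads other transcripts of the gene was not tested.
DMD A_24_P34186 (assigned to Dp427, chrX:32292733-32293101, minus strand): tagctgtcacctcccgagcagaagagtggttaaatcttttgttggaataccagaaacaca
DMD A_32_P199796 (assigned to Dp140, chrX:31586091-31586150, minus strand): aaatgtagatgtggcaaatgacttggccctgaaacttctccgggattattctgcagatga
DMD A_24_P342388 (assigned to Dp40, chrX:31151120-31189012, minus strand, across an intron): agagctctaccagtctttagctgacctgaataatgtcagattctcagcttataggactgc
The probes that lead DMD, UTRN and SGCA are each shown by 30 bases around the letters of a polyadenylation signal, AATAAA or ATTAAA, in capitals. For DMD and UTRN they are the 3′-most of the member probes of the gene. The array assigns this DMD probe to Dp427 as well.
DMD A_24_P185854 (chrX:31047270-31047329, minus strand): actgtgtatctcAATAAAgcacgcagttat
UTRN A_32_P524014 (chr6:145215631-145215690, plus strand): cctctatctgctATTAAAgaaaagctacgt
SGCA A_23_P66637 (chr17:45608226-45608285, plus strand): aggacattcagAATAAAtatctgctgctct
The letters AATAAA stood on the sense strand of 2 of the 19 member probes, those of DMD and SGCA above, and of 4.16% of all gene probes, and ATTAAA stood in 1 member probe, that of UTRN, and in 2.60% of all. On the opposite strand neither stood in a member probe (3.61% and 2.62% of all).

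The share of spots well above background was 71.1% to 73.6% in Cy3 and 64.4% to 67.8% in Cy5 over the arrays, and no spot was saturated. All 6 skeletal muscle markers (MYOD1, MYOG, DES, CHRNA1, CDH15 and FGFR4) were well above background in every reading of every extract. Of 11 markers of other lineages, 3 or 4 were well above background in all 4 readings of an extract. The second WT extract stood apart in its epithelial markers: the summed normalized intensity of EPCAM, KRT5 and CDH1 was 187 there against 10.2 to 13.4 in the other 5 extracts, in which none of the 3 was well above background, while the summed muscle markers were 134879 there and 137222 to 209942 elsewhere. The second KD1 extract had the highest summed intensity of all 11 markers of other lineages, 1837 against 790.2 to 1225 in the other 5 extracts. VWF, an endothelial marker, gave 1.01 and 2.97 in KD1/CON and 1.02 and 3.42 in KD1/WT. It was well above background in all 8 readings of each culture. PECAM1, another endothelial marker, gave -0.63 and 0.09 in KD1/CON and 0.19 and 0.34 in KD1/WT. CDH5, also endothelial, was well above background in only 3 of 8 CON, 2 of 8 WT and 3 of 8 KD1 readings. The part of either extract's other RNA in the results was not tested, and each result is given by replicate. The hairpin targets the fusion transcript, whose junction was not analysed here. The brightest probe of PAX3 gave -0.39 and -0.46 in KD1/CON and -0.45 and -0.33 in KD1/WT. That of FOXO1, the gene also called FKHR, gave -0.26 and -0.58, then -0.79 and -0.41. Both were below 0 in each replicate without passing the test. Another PAX3 probe (A_23_P209499), also well above background in all readings, gave 0.16 and -0.33 in KD1/CON and 0.26 and -0.15 in KD1/WT. The remaining PAX3 and FOXO1 probes were below 0 in each replicate of both KD1 comparisons, and none of these probes passed the test.

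A probe entered the test of a comparison when, on every array of that comparison, Cy3 or Cy5 was brighter than 99% of the negative controls. All 8 genes entered by their brightest probe in all 3 comparisons, with 12, 13 and 14 of the 19 probes tested in KD1/CON, KD1/WT and WT/CON. By limma with Benjamini-Hochberg adjustment over all probes tested, 1 of the 12 probes was called in KD1/CON, where 1.81% of all 21925 probes tested were called, and 1 of the 13 in KD1/WT, where 1.09% of 24860 were. Both calls were the SGCA probe, lower in KD1, a direction called for 1.03% and 0.8% of all probes. None of the 14 probes was called by limma in WT/CON, with 1.42% of 26566 called. At an unadjusted p under 0.05 there were 2, 4 and 3 member probes, beside 17.2%, 17.2% and 16.5% of all probes tested.

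Taking the brightest probe of each gene, the mean log2 ratio was below 0 for 6 of 8 genes in KD1/CON, 7 of 8 in KD1/WT and 3 of 8 in WT/CON. The median over the 8 was -0.30, -0.34 and 0.16, beside -0.01, 0.01 and -0.03 over all probes tested. Both replicates were below 0 for 6 of 8 genes in KD1/CON, for 4 of 8 in KD1/WT and for 0 of 8 in WT/CON, beside 37.2%, 27.6% and 32.9% of all probes tested. The KD1 comparisons share the KD1 extracts and are not independent of each other.

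**Figure D1:**
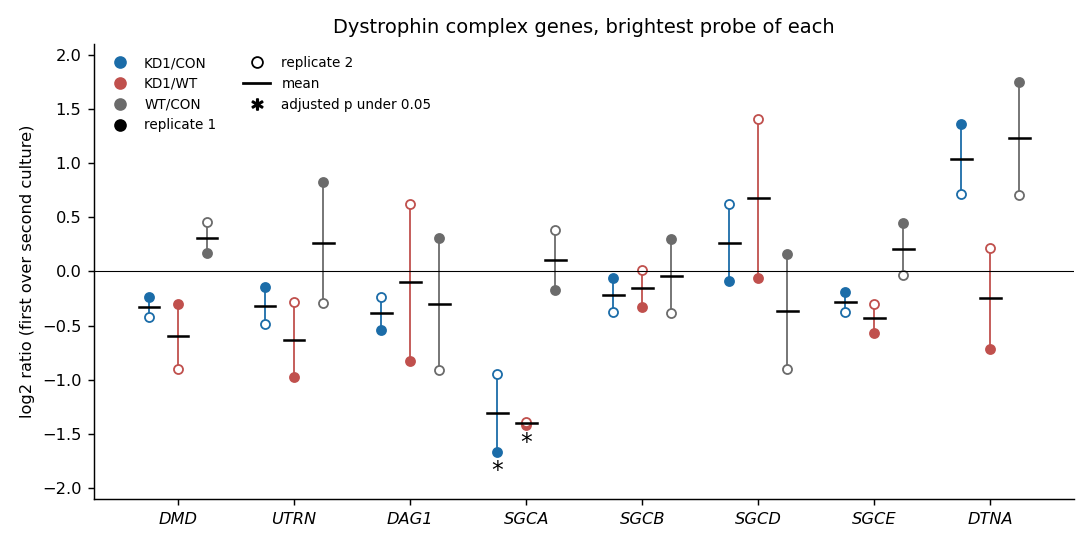
Log2 ratio of the brightest probe of each of the 8 genes in the 3 comparisons, first over second culture, with replicate 1 filled, replicate 2 open, their mean as a bar and a star where the adjusted p was under 0.05. SGCA carries the only stars, with its replicates at -1.67 and -0.95 in KD1/CON and at -1.41 and -1.39 in KD1/WT, while DTNA lies above 0 in KD1/CON and WT/CON.

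SGCA encodes α-sarcoglycan, a sarcoglycan made mainly in striated muscle. Its only probe was bright and well above background in all 8 readings of each culture. The normalized log2 intensity was 12.99 and 12.98 in the 2 CON extracts, 12.75 and 13.31 in the WT extracts, and 11.31 and 11.84 in the KD1 extracts. The KD1 readings, from 11.28 to 11.93 with a median of 11.50, all lay below the lowest reading of CON (12.77) and of WT (12.65), while CON and WT overlapped. By extract levels alone, a gap was found for 47.8% of all probes tested between CON and KD1 and 43.0% between WT and KD1. The share of probes whose single readings did not overlap was not computed. In the test of the difference, KD1/CON gave log2 ratios of -1.67 and -0.95 in replicates 1 and 2, a mean of -1.31 ± 0.51 (SD, n = 2; SE of the fit 0.23; limma adjusted p = 0.0423). KD1/WT gave -1.41 and -1.39, a mean of -1.40 ± 0.016 (SD, n = 2; SE of the fit 0.24; limma adjusted p = 0.0498). All 8 KD1 arrays were below 0, between -1.74 and -0.85. One slide carried all KD1 arrays of replicate 1 and another those of replicate 2, so slide and replicate cannot be told apart there, and the replicate values are also those within a slide. WT/CON gave -0.18 and 0.38 (limma adjusted p = 0.877), so that the replicates lay on both sides of 0. In a bulk culture, fewer cells with the transcript and less transcript per cell cannot be told apart.

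Under 9 alternatives with a test between extracts, the call of lower SGCA in KD1 was lost in most against CON and in all against WT. Normexp with loess, median centring, no replicate block and least squares recompute the ratio. Under these the mean was -1.42 to -1.27 against CON and -1.45 to -1.36 against WT. The series table, 3 residual degrees of freedom, the other filters and the mean over probes leave the ratio of a gene with 1 probe as it was. The limma adjusted p rose above 0.05 in 7 of the 9 against CON (range 0.043 to 0.0924) and in 9 of 9 against WT (0.0508 to 0.124). The reported p-values rest on the 2 residual degrees of freedom given to the fit, and with the 3 that limma would take they were 0.0633 against CON and 0.0769 against WT. With replicate 1 left out the value against CON was -0.95, under 2-fold.

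**Figure D2:**
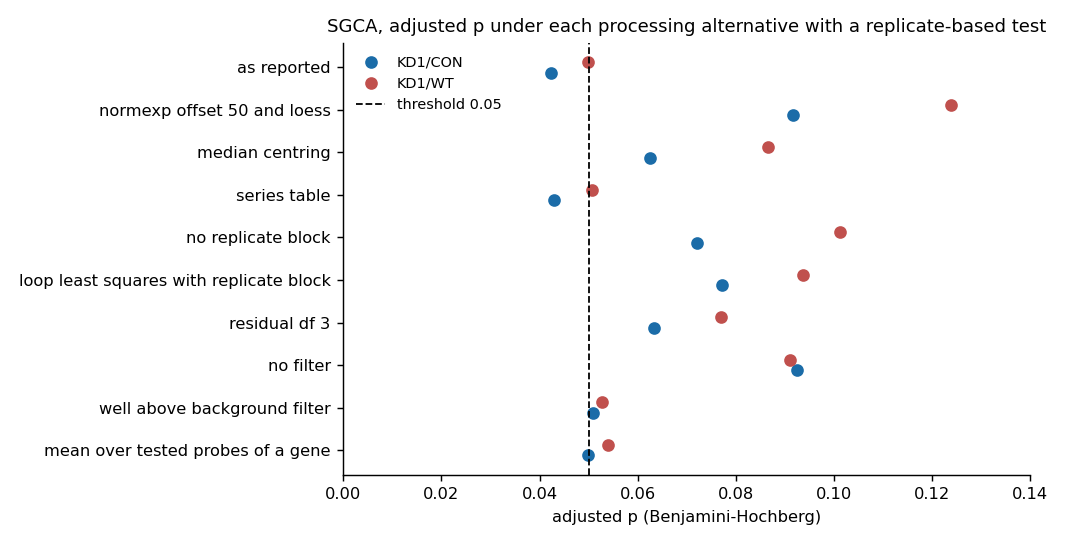
Adjusted p of SGCA (horizontal axis, linear) in KD1/CON and KD1/WT as reported and under the 9 alternatives that estimate the spread between extracts, with the threshold of 0.05 as a dashed line. The reported values, 0.0423 and 0.0498, lie just under the line, and most alternatives lie above it, up to 0.0924 and 0.124.

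The methods of the study name criteria for a selected gene: at least 2-fold on average in both KD1 comparisons, signal above the negative controls, and the same direction in the dye-swap pairs. Applied here with the signal limit on every KD1 array, they selected 257 of 15718 eligible genes (1.64%), 159 of them lower in KD1 (1.01%). All 8 members were eligible and SGCA alone was selected. It was selected as well with the signal limit on a single array, with normexp correction, with median centring and without replicate 2, but not without replicate 1.

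The other sarcoglycans did not move with SGCA by an amount that passed the test. SGCB, β-sarcoglycan, forms the core of the sarcoglycan complex with δ-sarcoglycan. Its probe (chr4:52585066-52588932, minus strand, across an intron) gave -0.06 and -0.37 in KD1/CON, -0.32 and 0.01 in KD1/WT, and 0.30 and -0.38 in WT/CON, with limma adjusted p of 0.704, 0.781 and 0.955. Its extract levels overlapped between all 3 cultures, from 11.32 to 11.89.

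SGCE, ε-sarcoglycan, is the close relative of α-sarcoglycan that is also made outside muscle. Its probe (chr7:94066966-94067947, minus strand, across an intron) had levels of 13.54 and 13.63 in CON, 13.95 and 13.67 in WT and 13.36 and 13.37 in KD1. No pair of cultures overlapped in its extract levels, KD1 being the lowest, and such a gap between the extracts of CON and KD1, of WT and KD1, and of CON and WT was found for 47.8%, 43.0% and 48.1% of all probes tested. The ratios were -0.19 and -0.38 in KD1/CON (limma adjusted p = 0.549) and -0.57 and -0.30 in KD1/WT (limma adjusted p = 0.349), below 0 on 7 of 8 KD1 arrays. The difference was in the direction of SGCA and, with means of -0.28 and -0.43, under 2-fold.

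SGCD, δ-sarcoglycan, was read by 3 probes that were all well above background in all readings. The brightest (A_32_P4595, chr5:156126883-156126942) gave -0.09 and 0.62 in KD1/CON and -0.06 and 1.41 in KD1/WT, with limma adjusted p of 0.775 and 0.382. In this probe the KD1 extracts were 10.22 and 12.04, farther apart than any 2 extracts of CON and WT (10.28 to 11.37). A second probe of the same transcript (A_23_P147647, chr5:156119042-156119101) gave -0.76 and 0.11, then 0.01 and 0.99. The probe assigned to transcript variant 2 (A_23_P136254, chr5:155868232-155948819, across an intron) gave -0.68 and 0.02, then 0.10 and 1.35. For each of the 3 probes, the second replicate was the higher one in both KD1 comparisons. In WT/CON the latter 2 probes were below 0 on all 4 arrays, with means of -0.85 ± 0.24 and -0.95 ± 0.35 (SD, n = 2; limma adjusted p = 0.208 and 0.186), while the brightest gave 0.16 and -0.90. The probes therefore disagreed in sign in replicate 1 of WT/CON. In KD1/CON the brightest probe was the highest of the 3 in each replicate. The mean of SGCD in KD1/CON turned from 0.27 to -0.13 when its 3 tested probes were averaged.

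**Figure D3:**
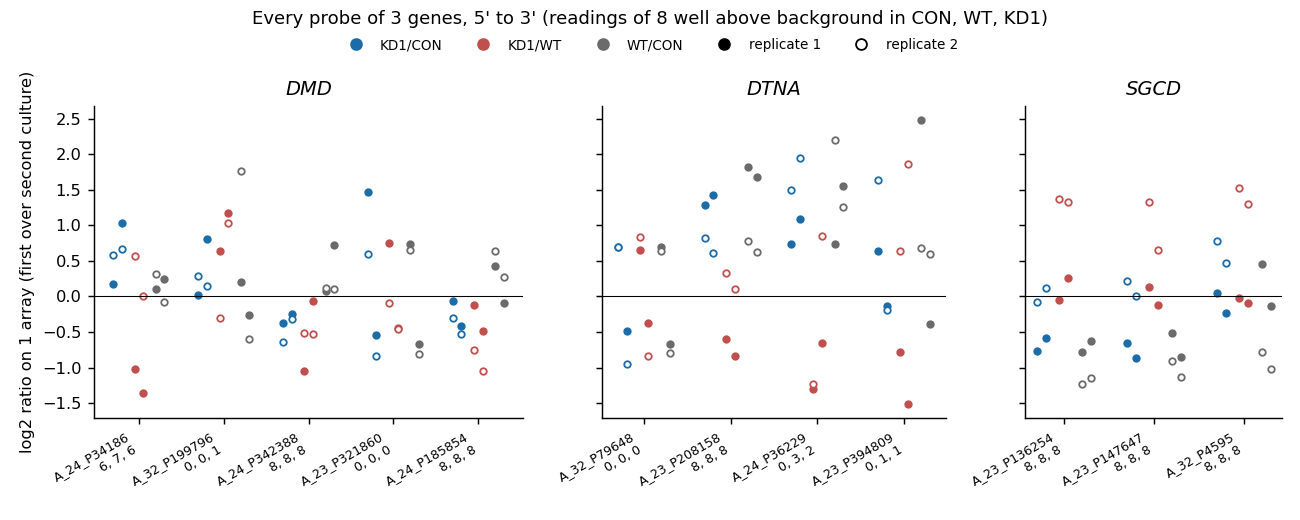
Log2 ratio on each of the 12 arrays for every probe of DMD, DTNA and SGCD, ordered 5′ to 3′ along the gene, by comparison (color) and replicate (filled or open), with the number of the 8 readings well above background in CON, WT and KD1 under each probe. The 3′-most DMD probe A_24_P185854 lies below 0 on all 8 KD1 arrays, and DMD and DTNA probes with 0 or 1 readings above background scatter on both sides of 0.

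DMD was led by its 3′-most probe, which the array also assigns to Dp427. The levels of this probe were 11.77 and 11.86 in the CON extracts, 11.90 and 12.38 in the WT extracts, and 11.62 and 11.49 in the KD1 extracts, so that WT was the highest, KD1 the lowest, and no 2 cultures overlapped. Such a gap was found for 47.8% of all probes tested between CON and KD1, 43.0% between WT and KD1 and 48.1% between CON and WT. KD1/CON gave -0.24 and -0.42 (mean -0.33 ± 0.13, SD, n = 2; limma adjusted p = 0.497). KD1/WT gave -0.30 and -0.90 (mean -0.60 ± 0.42, SD, n = 2; limma adjusted p = 0.226). All 8 KD1 arrays were below 0, from -1.04 to -0.06, and neither difference passed the test.

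The coding probe of DMD assigned to Dp40 (A_24_P342388) was dimmer and well above background in all readings. It gave -0.31 and -0.48 in KD1/CON, where it failed the negative-control limit on 1 of 4 arrays and was not tested, and -0.55 and -0.52 in KD1/WT (limma adjusted p = 0.231). It too was below 0 on all 8 KD1 arrays. The other probe assigned to Dp427 (A_24_P34186), which lies far upstream, was well above background in 6 of 8 CON readings, 7 of 8 WT readings and 6 of 8 KD1 readings. Its ratios were 0.60 and 0.62 in KD1/CON and -1.18 and 0.29 in KD1/WT, and it entered the test in WT/CON only (0.17 and 0.11, limma adjusted p = 0.859). In KD1/CON this probe was not above the negative-control limit on either array of replicate 1. For the upstream probe the 3 comparisons of replicate 1 did not add up: KD1/CON exceeded the sum of the other 2 by 1.61 on the log2 scale, against 0.22 in replicate 2 and -0.10 and 0.03 for the 3′-most probe. The Dp140 probe was well above background in 1 of 8 KD1 readings and in 0 of the 16 others. A_23_P321860, a further probe assigned to Dp40, was well above background in none. These 2 probes therefore give no level.

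**Figure D4:**
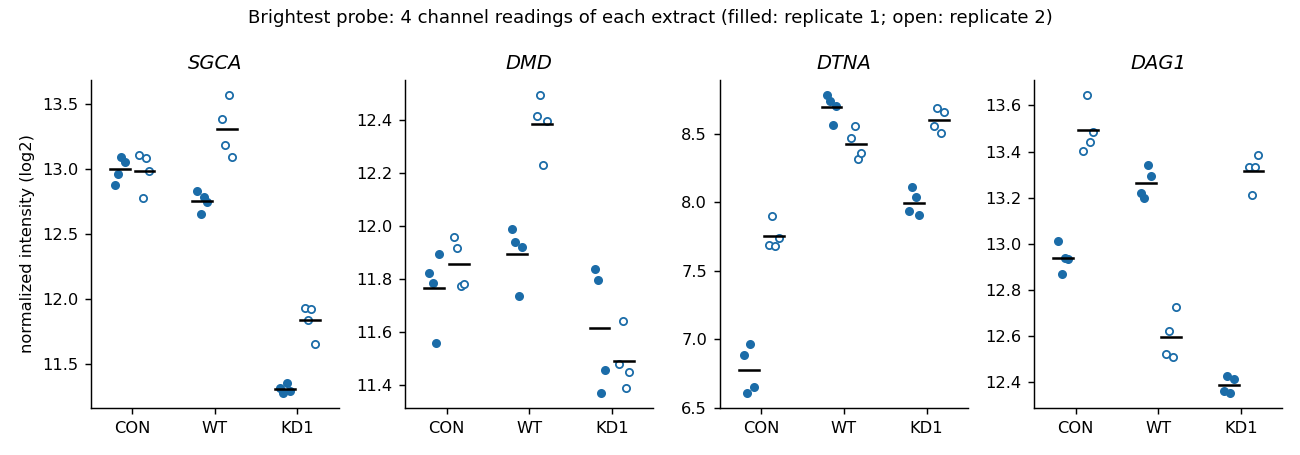
Normalized log2 intensity of the brightest probes of SGCA, DMD, DTNA and DAG1 in each culture, 4 channel readings per extract (replicate 1 filled, replicate 2 open) with the extract mean as a bar; each panel has its own axis, since levels of different probes cannot be compared. SGCA is separated in KD1 (11.31 and 11.84), DTNA is lowest in CON (6.78 and 7.75), and the DAG1 extracts of each culture lie apart.

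UTRN, the gene of utrophin, had 2 probes well above background in all readings. The brighter, the 3′-most, had levels of 11.10 and 11.96 in CON, 11.96 and 11.74 in WT and 11.02 and 11.49 in KD1, and KD1 did not overlap WT but did overlap CON. A gap between WT and KD1 was found for 43.0% of all probes tested. This UTRN probe gave -0.15 and -0.49 in KD1/CON and -0.98 and -0.28 in KD1/WT, with limma adjusted p of 0.628 and 0.312. All 8 KD1 arrays were below 0 for this probe. The second probe (A_23_P214779, chr6:145203595-145203654) gave -0.23 and -0.40, then -0.57 and -0.15, and was below 0 on 7 of 8. In WT/CON both probes were above 0 in replicate 1 (0.82 and 0.32) and below 0 in replicate 2 (-0.29 and -0.23).

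DAG1 encodes dystroglycan, the laminin receptor at the center of the complex. Its brighter probe (A_24_P225961, chr3:49547198-49547257) had levels of 12.94 and 13.49 in CON, 13.26 and 12.60 in WT, and 12.39 and 13.32 in KD1, which overlapped between every 2 cultures. KD1/CON gave -0.54 and -0.23 (limma adjusted p = 0.635), with all 4 arrays below 0. KD1/WT gave -0.82 and 0.62 (limma adjusted p = 0.918), opposite in sign between the replicates. The second probe (A_23_P212579, chr3:49544823-49544882) showed the same pattern, with -0.52 and -0.42 in KD1/CON and -0.42 and 0.47 in KD1/WT. The spread between replicates was therefore larger than the mean difference from WT in both probes, and in replicate 1 alone the value was below 0.

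DTNA, α-dystrobrevin, was the only member whose brightest probe was above 0 in both replicates of KD1/CON. That probe (A_23_P208158, chr18:30663004-30663063, plus strand) had levels of 6.78 and 7.75 in CON, 8.70 and 8.42 in WT and 8.0 and 8.60 in KD1. CON lay below both other cultures, which overlapped each other. A gap in either direction was found for 47.8% of all probes tested between CON and KD1 and 48.1% between CON and WT. KD1/CON gave 1.36 and 0.71 (mean 1.03 ± 0.46, SD, n = 2; 2.05-fold; limma adjusted p = 0.146) and WT/CON gave 1.75 and 0.71 (mean 1.23 ± 0.74, SD, n = 2; 2.34-fold; limma adjusted p = 0.110). Neither passed the test. All 8 arrays with CON showed the direction, but they are repeated readings of the same extracts. With normexp correction and loess the means were smaller, 0.52 and 0.78. KD1/WT gave -0.71 and 0.22 (limma adjusted p = 0.731).

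The remaining 3 DTNA probes, assigned to transcript variants 3, 1 and 9, were at or near background. A_24_P36229 (variant 3) was well above background in 0 of 8 CON readings, 3 of 8 WT readings and 2 of 8 KD1 readings. With CON not well above background on any array, no direction or fold against CON is given for it. A_23_P394809 (variant 1) was well above background in 1 WT reading and 1 KD1 reading and A_32_P79648 (variant 9) in none.

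The genes with the pattern over the 12 arrays most like that of SGCA, by root mean square difference of the log2 ratios among 21870 probes tested in all 3 comparisons, were BLVRA (0.21), ASPHD1 (0.24) and HOXB13 (0.25). Their means were -1.27, -1.11 and -1.23 in KD1/CON. For the 3′-most DMD probe they were EED (0.12), KLHDC5 (0.17) and BICC1 (0.19), with means of -0.34, -0.27 and -0.21 in KD1/CON.

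Genes that work with the complex were read from 5 lists holding 64 genes on the array, through the brightest probe of each. By limma, 0 of 50 tested were called in KD1/CON, 0 of 55 in KD1/WT and 0 of 57 in WT/CON, with 11, 12 and 16 at an unadjusted p under 0.05, beside the 17.2%, 17.2% and 16.5% of all probes. Their medians were 0.11, -0.10 and 0.32, beside -0.01, 0.01 and -0.03 over all probes tested. Of the 6 syntrophins and DTNB, the adaptors that bind dystrophin and dystrobrevin, 4 were tested in KD1/CON. DTNB, β-dystrobrevin, gave 0.82 and 0.75 in KD1/CON and 0.42 and 0.52 in KD1/WT (limma adjusted p = 0.0962 and 0.279). SNTB1, a syntrophin, gave -0.38 and 0.061 in KD1/CON, and SNTB2, another, gave 0.41 and -0.21.

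Of the 9 genes of other sarcoglycans, sarcospan and caveolae, 7 were tested in KD1/CON. SSPN, sarcospan, a small membrane protein bound to the sarcoglycans, gave 0.84 and 0.88 in KD1/CON and -0.87 and 0.66 in KD1/WT. CAV3, the caveolin of muscle, gave -0.08 and -0.18 in KD1/CON. Of 18 enzymes that build the laminin-binding sugar of dystroglycan, 15 were tested in KD1/CON with a median of 0.021. Among them LARGE, which adds the laminin-binding polymer, gave -0.46 and -0.38 in KD1/CON and -0.02 and 0.29 in KD1/WT. LAMA2, the laminin chain of muscle, gave 0.075 and -0.48 in KD1/CON and -1.32 and -0.18 in KD1/WT. ITGA7, the integrin chain that links muscle fibers to laminin in parallel with dystroglycan, gave -0.27 and 0.89, then -1.33 and 1.12, opposite in sign between replicates. Among the muscle markers MYOG alone was called, lower in WT/CON (-1.96 and -1.49, limma adjusted p = 0.0183), and its values in KD1/CON were -1.35 and -0.92 (limma adjusted p = 0.0505), while those in KD1/WT were above 0, at 0.74 and 0.46 (limma adjusted p = 0.226).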

How the data were processed

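Gene expression was measured on 12 Agilent whole human genome arrays. Per the file headers and the methods, spots were read by the authors in Agilent Feature Extraction 10.5.1.1, and the deposited values are linear intensities, with processed signals after background subtraction and lowess normalization within the array. The deposited log10 ratio of each spot, red over green, was made by the authors from the same processed signals, and their series table holds it in log2 and was used as an alternative. All of its per-sample columns were matched, and coordinates are those of the files (NCBI36).

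Log2 ratios of the processed signals were turned so that the first culture is the numerator, averaged over spots without outlier flags (95 to 188 per array) and over each dye-swap pair. Normalized levels per channel are log2 intensities after Aquantile normalization between arrays. The 6 replicate ratios were fitted in R 4.3.3 by limma 3.58.1 (lmFit, eBayes) with a coefficient per comparison, with Benjamini-Hochberg adjustment and a threshold of 0.05. The fit was given 2 residual degrees of freedom, since the 3 comparisons share 6 extracts; lmFit alone would give 3. Probes were kept when Cy3 or Cy5, on every array of the comparison, was above 99% of the 153 negative controls. Tested on simulated data with 200 probes changed by 2 on the log2 scale, over 20 simulations, the fit recovered 52% of them in KD1/CON (21925 probes, 1.15 false calls on average), 43.8% in KD1/WT and 38% in WT/CON. Precision is limited by the 2 extracts per culture.

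The members and the gene lists were chosen with earlier results of these data known. The genes named are all members, a fixed set of partner genes and those of the lists that were called, PAX3 and FOXO1, and the 3 genes nearest in pattern to DMD and to each called member. Some genes of that set are not reported here. The brightest probe leads a gene. The alternatives were normexp correction (offset 50) with loess, median centring, the series table, fits without the replicate block and with extract values by least squares, 3 residual degrees of freedom, a slide block, other filters on dim probes, the mean over probes of a gene, and each replicate left out. Figures were drawn with Python 3.11.15 and matplotlib 3.10.9.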

Additional observations from a re-analysis of the deposited data

How the results depend on the processing

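The count of member probes called, 1 in KD1/CON and 1 in KD1/WT (SGCA in both), fell to 0 in both comparisons under normexp with loess, median centring, no replicate block, least squares over the loop with the replicate block, 3 residual degrees of freedom, no filter and the filter on spots well above background. In KD1/WT it was also 0 with the series table and with the mean over probes of a gene. Fitted over the 12 single arrays with a slide block, the calls were 12 of 12 member probes in KD1/CON, 11 of 13 in KD1/WT and 9 of 14 in WT/CON, and 37, 41 and 45 of the partner genes in place of 0. That fit takes dye-swap arrays of the same extracts as separate samples, so its p-values are too small, and over all probes it called 14530, 16307 and 16677 where 396, 272 and 377 were reported. Over all probes the calls were 26, 1 and 2 under normexp with loess and 161, 111 and 131 with extract values by least squares. All replicates carry shared numbers and were hybridized within a number, so the pairing is built into each ratio. Without the replicate block the SGCA values were -1.42 (limma adjusted p = 0.072) in KD1/CON and -1.45 (0.101) in KD1/WT. Deviations of same-numbered extracts correlated with 0.54 for KD1 and CON, -0.072 for KD1 and WT and -0.021 for WT and CON across 21870 probes. The mean of SGCD in KD1/CON turned to -0.13 with its probes averaged. The selection criteria kept 0 members without replicate 1 and 1 in the other alternatives. With a single replicate a comparison has no test between extracts, so no count of calls is given for those settings. The causes of the other changes were not tested.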

Other observations

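Genes lying within 1 Mb of each member on NCBI36 and tested in all 3 comparisons were also read, through the brightest probe of each. Around SGCA there were 35 such genes, with medians of 0.11 in KD1/CON, 0.018 in KD1/WT and 0.12 in WT/CON. Of these, 0 were called by limma in KD1/CON and 1 in KD1/WT, ABI3, at -1.92. Around DTNA the 7 genes had medians of 0.17 in KD1/CON and -0.043 in WT/CON, and the lowest and highest in WT/CON were -0.41 and 0.49, below the mean of 1.23 of DTNA. Around UTRN the 5 genes had medians of -0.30 in KD1/CON and -0.33 in KD1/WT, where UTRN had -0.32 and -0.63. Around SGCD the 5 genes had medians of -0.49 in KD1/CON and -0.52 in WT/CON. None of the neighbours of DTNA, UTRN or SGCD was called by limma in any comparison.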
